A study of Mus musculus with 4 samples.

Results

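The amino acid transporter families were described in regulatory T cells, the CD4 T cells that restrain immune responses and carry the transcription factor Foxp3. Members were all genes whose mouse symbol belongs to the families Slc1, Slc3, Slc6, Slc7, Slc36, Slc38 or Slc43, chosen by name and not by measured values. The rule took 63 of the 50600 genes in the files, and all 63 were protein-coding. The 4 RNA-seq libraries formed 1 group, biological replicates 1 to 4 of primary regulatory T cells from mice of strain C57BL/6NJ. The labels gave the same donor for all 4 replicates and gave neither age nor sex. A linked protocol covers differentiation of CD4 T cells, and names in the file headers carry the word activated and a time of 72 h. With no second group, levels were compared between genes inside each library and spread was measured between libraries. The labels do not state that the replicates came from separate animals, so every p-value below measures only the spread between these libraries, be it technical or between animals.

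Amino acids cross membranes through carriers, and the families studied here hold many of those at the plasma membrane and the lysosome. Members of Slc7 fall into light chains, most of which need a heavy chain of the Slc3 family to reach the cell surface, and cationic carriers that work alone. Slc1 holds glutamate carriers and the neutral exchangers, Slc38 the sodium-coupled glutamine carriers, and Slc36 proton-coupled carriers and their relatives. Slc43 holds facilitated carriers, and Slc6 the sodium- and chloride-coupled carriers of neurotransmitters, osmolytes and amino acids. In T cells these carriers are known to rise on activation, and leucine and glutamine import feeds the mTORC1 kinase, which in regulatory T cells supports suppressive function. When amino acids run short, the kinase Gcn2 raises translation of the transcription factor Atf4, which acts on amino acid response letters in the promoters of several carriers. The transcription factors Tfeb and Tfe3 act on E-box letters of lysosomal genes.

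Both of these responses are read at promoters. Promoter letters were searched in place of a planned protein alignment, which could not be run. RefSeq promoters on GRCm38.p6, each running from 250 bases before a transcript start to 50 after it, were matched for 45 of the 63 members, with 66 promoters in all. Members without a match included Slc1a5, Slc36a2, Slc38a1, Slc38a3, Slc43a3, Slc6a2, Slc6a6, Slc6a7, Slc6a8, Slc6a15, Slc6a18, Slc7a2, Slc7a3, Slc7a4, Slc7a5, Slc7a12 and Slc7a13. Some of these, such as Slc7a5 and Slc1a5, are among the members of highest level, and their promoters were not searched. The amino acid response letters TGATGCAA were searched on both strands. They were present in 294 of 32851 promoters of all genes, or 0.895%, and in 4 of the 66 member promoters, or 6.06%, which belonged to Slc7a11, Slc1a4 and Slc7a7. The extended E-box GTCACGTG contains the plain E-box CACGTG, so a match to the first is always a match to the second. The extended letters were in 2.25% of all promoters and in 1 member promoter, that of Slc36a1. The plain letters were in 7.15% of all promoters and in 9 of the member promoters, or 13.6%. Those 9 belonged to Slc36a1, Slc38a7, Slc43a1, Slc38a5, Slc6a3, Slc1a6, Slc1a7, Slc6a16 and Slc7a14. A match is a description of the letters and not evidence of binding.

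The following stretches show the 3 members with amino acid response letters and the lysosomal carriers Slc36a1 and Slc38a7, whose levels are given further on. They are RefSeq sequence, read 5′ to 3′ on the gene's own strand, and capitals mark the searched letters or their reverse complement.
Slc7a11, chr3:50443614-50443739, minus strand: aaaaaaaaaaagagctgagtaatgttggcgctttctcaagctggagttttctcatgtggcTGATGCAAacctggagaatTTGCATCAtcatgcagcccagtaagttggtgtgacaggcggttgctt
Slc1a4, chr11:20332710-20332777, minus strand: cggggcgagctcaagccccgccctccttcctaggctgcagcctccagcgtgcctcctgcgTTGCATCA
Slc7a7, chr14:54417878-54417952, minus strand: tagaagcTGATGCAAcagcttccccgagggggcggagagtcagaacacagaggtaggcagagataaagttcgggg
Slc36a1, chr11:55204249-55204344, plus strand: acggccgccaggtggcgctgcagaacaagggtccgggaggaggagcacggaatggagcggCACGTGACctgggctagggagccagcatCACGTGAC
Slc38a7, chr8:95853492-95853585, minus strand: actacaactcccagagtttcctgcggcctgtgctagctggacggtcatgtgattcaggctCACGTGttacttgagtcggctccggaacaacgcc
The Slc7a11 stretch held 2 copies of the amino acid response letters, 1 on each strand, and the Slc36a1 stretch held 2 copies of the extended E-box. The 3 genes with amino acid response letters differed widely in level, at a mean of 33.5 TPM for Slc1a4, 1.47 for Slc7a7 and 0.154 for Slc7a11. TPM is the count on a gene over its exon length, with every library brought to a common sum, so that levels of genes of different length can be compared.

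The 4 libraries held 51460018 to 121477975 counts on genes, with replicate 1 the deepest and replicate 4 the shallowest. The 5 regulatory T cell markers examined all passed 1 TPM, with Foxp3 at 448 ± 27.8 TPM (SD, n = 4), as did the 5 general T cell markers. Of markers of other cells, 1 TPM in every library was passed by 1 of 2 for CD8 T cells (Cd8b1, 11.5 TPM on average), 2 of 6 for B cells (Ighm, 354 TPM, and Cd79b, 3.14 TPM), 1 of 7 for macrophages, monocytes and dendritic cells (Adgre1, 2.55 TPM), 1 of 4 for natural killer cells (Eomes, 3.34 TPM) and 2 of 5 for stromal, endothelial and epithelial cells (Pecam1, 9.02 TPM, and Epcam, 3.12 TPM). None of 4 granulocyte and mast cell markers and none of 4 erythroid markers did so. The B cell markers Pax5 and Ms4a1 were at most 0.0125 TPM on average and Cd79a was at 0.676 TPM. Lyz2 of macrophages, Ncr1 of natural killer cells, S100a8, S100a9 and Mpo of granulocytes, Hbb-bs of erythroid cells and Cdh5 of endothelium had 0 counts in all libraries. Xist, the noncoding RNA of the inactive X chromosome, was at 173, 199, 0.592 and 0.758 TPM in replicates 1 to 4, although the libraries carry a single donor label. Replicates 1 and 2 thus held the RNA of an inactive X chromosome, as female cells do, and replicates 3 and 4 nearly none. Repeat libraries of a single RNA sample would not differ this way, and the labels give neither sex nor the number of animals. Any part of sex in the spread between libraries was not tested. Xist was the 1 gene of all those tested that passed the spread test described further on, with an adjusted p of 1.84e-05 in edgeR.

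A small set of carriers held most of the transporter transcripts. The 63 members summed to 2151 ± 74.9 TPM (SD, n = 4) and took 0.337 ± 0.00807% of all counts. The 10 highest members, all at 100 TPM or more, made up 92.5 ± 0.162% of that sum, and the 4 highest made up 55.8 ± 0.702%. At least 1 TPM in all 4 libraries was reached by 22 members, which is 34.9% of them, beside 48.9% of the 21764 protein-coding genes. A mean of 100 TPM or more was reached by 15.9% of members and by 9.62% of protein-coding genes. A further 5 members lay between 10 and 100 TPM, and 7 passed 1 TPM in every library with means under 10. No count in any library was found for 20 members, 31.7% of them, beside 30.8% of protein-coding genes. The remaining 21 members had counts but stayed under 1 TPM in at least 1 library. None of the 63 shared exon bases with another gene on its own strand.

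**Figure D1:**
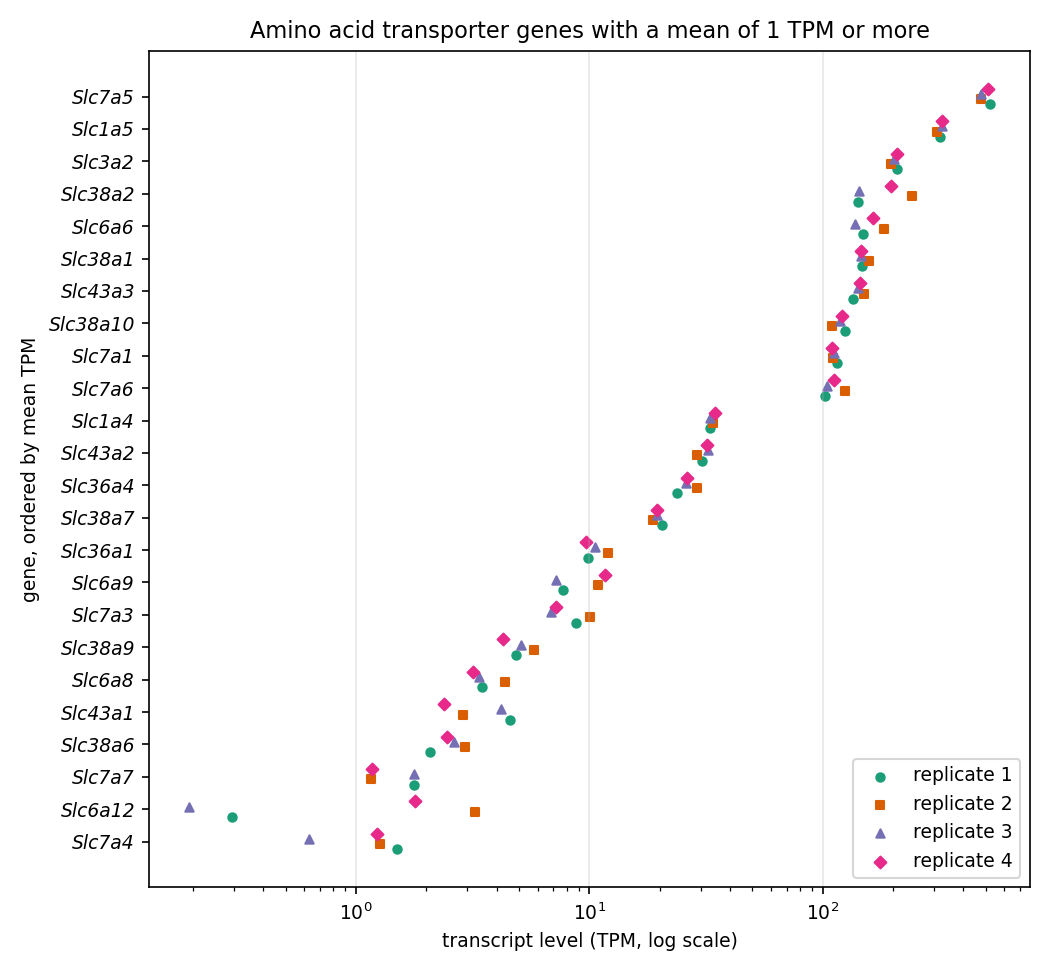
Transcript level of the 24 members with a mean of 1 TPM or more, in TPM on a log axis, with 1 point per library and genes ordered by their mean. The 10 highest members lie at 100 TPM or more in all 4 libraries and are set apart from Slc1a4, the next at 33.5 TPM, and Slc6a12 has the widest spread of points.

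Slc7 was the most abundant family and Slc36 the least. The 15 Slc7 genes summed to 730.0 ± 22.4 TPM (SD, n = 4), of which Slc7a5 alone made up 67.9%. The 11 Slc38 genes summed to 475 ± 46.9 TPM and were shared more evenly, with the highest, Slc38a2, at 37.95% of the sum. The 7 Slc1 genes summed to 354 ± 7.04 TPM, 90.4% of it from Slc1a5. Slc3 stood at 204 ± 6.22 TPM, Slc43 at 177 ± 5.10, Slc6 at 173 ± 23.4 and Slc36 at 37.6 ± 3.38. Slc6 was the largest family by number of genes, with 21, of which 3 passed 1 TPM in every library and 11 had no counts. The sums of Slc6 overlapped between libraries with those of Slc43 and of Slc3, and neither order was resolved. In replicate 2, Slc6 was at 201.7 TPM and Slc3 at 195.6. The SD of Slc38 and that of Slc6 were the 2 largest among families, and both sums were highest in replicate 2.

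**Figure D2:**
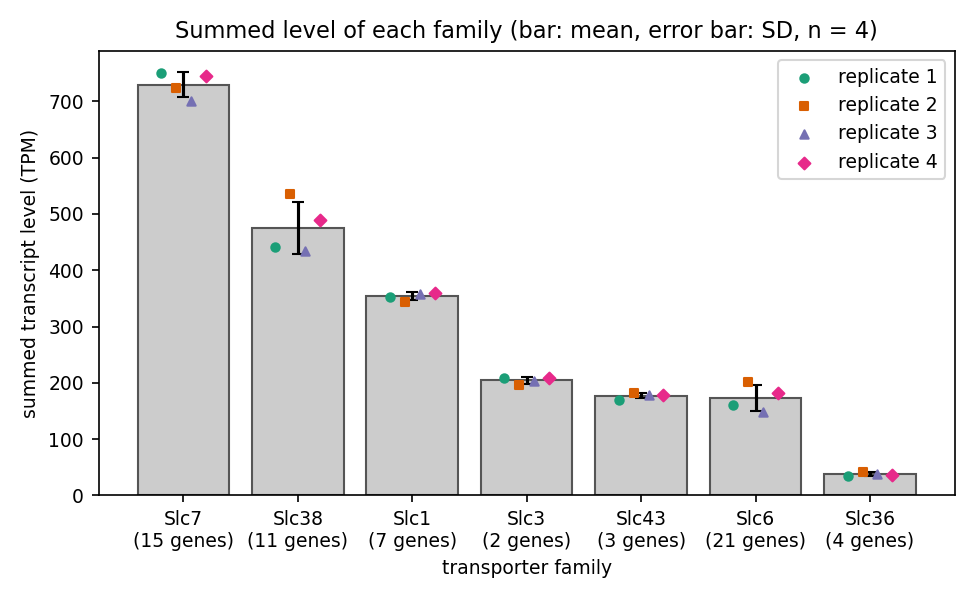
Summed transcript level of each of the 7 families in TPM. Bars are means and error bars SD over 4 libraries, points are single libraries, and the axis starts at 0. Slc7 stands highest at 730.0 TPM, and the points of Slc38 and Slc6 are the most spread.

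The heavy chain Slc3a2 and its light chain Slc7a5 led the heteromeric carriers. Slc3a2 encodes CD98, the surface glycoprotein that brings light chains to the plasma membrane, and Slc7a5 encodes LAT1, the exchanger that imports leucine and other large neutral amino acids. Slc7a5 was at 520, 475, 475 and 513 TPM in replicates 1 to 4, a mean of 495.6 ± 24.0 (SD, n = 4), the highest of all members and rank 258 among protein-coding genes. Slc3a2 was at 208, 195, 203 and 209 TPM, a mean of 204 ± 6.22 and rank 865. Both genes differed little between libraries, and their ranges did not overlap. Slc7a5 was above Slc3a2 by 1.28 ± 0.04 on the log2(TPM + 0.1) scale, a 2.43-fold difference in 4 of 4 libraries. In the exact two-sided sign-flip permutation test, 4 libraries allow 16 sign assignments, of which at least 2 are as large as the observed one. The smallest possible p, reached by this pair, is 0.135 after Benjamini-Hochberg adjustment over the 14 pairs compared, so no pair could pass 0.05. Slc7a5 lies at chr8:121881150-121907694 on the minus strand of mm10, and Slc3a2 at chr19:8706882-8723369 on the minus strand.

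The other light chains of Slc3a2 were far lower, apart from Slc7a6. The 6 light chains known to pair with Slc3a2, namely Slc7a5, Slc7a6, Slc7a7, Slc7a8, Slc7a10 and Slc7a11, summed to 608 ± 21.2 TPM, of which Slc7a5 made up 81.4%. Their sum was 2.98 ± 0.0883 times the level of Slc3a2. Slc7a6 encodes y+LAT2, which exchanges cationic for neutral amino acids, and was at 102, 125, 104 and 112 TPM, highest in replicate 2. Its relative Slc7a7, y+LAT1, was at 1.77, 1.16, 1.76 and 1.17 TPM, and lay below Slc7a6 by 6.17 ± 0.44 on the log2 scale in 4 of 4 libraries. Replicates 1 and 3 held the higher levels of Slc7a7. Slc7a8, LAT2, overlaps LAT1 in its substrates. It was at 0.336 ± 0.0626 TPM, 10.16 ± 0.17 log2 units below Slc7a5.

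Slc7a11 encodes xCT, the light chain that exchanges glutamate for cystine and supplies cysteine for glutathione. It had 86, 45, 28 and 36 counts, which is 0.173, 0.179, 0.0913 and 0.171 TPM, so it was detected in every library at a low level. Replicates 1, 2 and 4 lay close together and replicate 3 was lower. The difference from Slc7a5 was 10.95 ± 0.23 log2 units. Slc7a10, the light chain for small neutral amino acids, had at most 3 counts in a library. The second heavy chain, Slc3a1, part of a carrier of cystine and cationic amino acids in kidney, was at 0.233 ± 0.0822 TPM. It lay 9.29 ± 0.36 log2 units below Slc3a2. Slc7a9, a light chain known to pair with Slc3a1, had no counts in any library. All of these differences had the same direction in 4 of 4 libraries and the same adjusted exact permutation p, 0.135.

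Cationic amino acids have their own carriers, and Slc7a1 held nearly all of that level. Slc7a1 encodes CAT1, which carries arginine and lysine, and was at 115, 111, 112 and 110 TPM. Its coefficient of variation was 2.06%. Slc7a2, the inducible carrier CAT2 known from macrophages, was at 0.279 ± 0.0214 TPM, 8.21 ± 0.09 log2 units below Slc7a1. Slc7a3, CAT3, was at 8.78, 10.1, 6.85 and 7.20 TPM, highest in replicate 2. The 3 cationic carriers summed to 120.4 ± 2.97 TPM, with 92.9% from Slc7a1. Slc7a4, whose substrate is unsettled, was at 1.498, 1.27, 0.627 and 1.23 TPM.

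Glutamine and small neutral amino acids were covered by Slc1a5, Slc38a2 and Slc38a1, all above 100 TPM. Slc1a5 encodes ASCT2, a sodium-dependent exchanger of glutamine, serine, alanine and threonine. It was at 320, 309, 325 and 324 TPM, a mean of 319.5 ± 7.23 (SD, n = 4). The replicates lay within a narrow band, and Slc1a5 was the member of second highest level. Slc1a4, ASCT1, which exchanges serine, alanine and cysteine, was at 32.9, 33.8, 32.9 and 34.5 TPM. Slc1a5 exceeded it 9.51-fold, by 3.25 ± 0.05 log2 units in 4 of 4 libraries. Slc1a4 had the smallest dispersion of all tested members relative to the trend, with a ratio of 0.0708.

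Slc38a2 encodes SNAT2, a sodium-coupled importer of glutamine, alanine and proline that is known to be induced by amino acid shortage and by hypertonic stress. It was at 142, 241, 143 and 196 TPM, a mean of 180.3 ± 47.4 (SD, n = 4). Replicates 1 and 3 were nearly equal, while replicate 2 was highest and replicate 4 lay between. Slc38a1, SNAT1, a close relative with overlapping substrates, was at 147, 157, 146 and 146 TPM. Slc38a1 was above Slc38a2 by 0.05 and 0.03 log2 units in replicates 1 and 3 and below it by 0.61 and 0.43 in replicates 2 and 4. The mean difference was -0.24 ± 0.33 with an exact permutation p of 0.5, so the order of the pair was not resolved. This was the 1 pair of 14 without a common direction. Without division by length the same difference was 0.62, since the exons of Slc38a1 are longer, 8391 against 4626 bases. Slc1a5 was above Slc38a2 in 4 of 4 libraries, by 1.17, 0.36, 1.18 and 0.73 log2 units.

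The other Slc38 genes spanned a wide range of levels. Slc38a10, whose transport role is less settled, was at 124, 110, 118 and 122 TPM, lowest in replicate 2. Slc38a7, a lysosomal glutamine and asparagine carrier, was at 20.4, 18.8, 19.6 and 19.5 TPM. Slc38a6 was at 2.52 ± 0.355 TPM. Slc38a5, SNAT5, which moves glutamine, serine and glycine, was at 0.273 ± 0.0887 TPM, 8.67 ± 0.34 log2 units below Slc38a1. Slc38a3, the glutamine carrier of liver and kidney, had 0, 1, 0 and 11 counts. Slc38a8 had 8 counts, all in replicate 3, and Slc38a4 and Slc38a11 had none.

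The facilitated carriers of Slc43 were all above 1 TPM. Slc43a3, known as a purine nucleobase carrier and not an amino acid carrier despite its family, was the highest, at 135, 150, 142 and 144 TPM. Slc43a2, LAT4, which lets branched-chain amino acids, methionine and phenylalanine pass, was at 30.5, 29.1, 32.3 and 31.9 TPM. Slc43a1, LAT3, with similar substrates, was at 4.56, 2.88, 4.18 and 2.39 TPM, and replicates 2 and 4 were the lower. Slc43a1 was below Slc43a2 by 3.15 ± 0.43 log2 units in 4 of 4 libraries.

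Lysosomal carriers connect stored amino acids to mTORC1. Slc38a9 is the arginine sensor at the lysosome. Slc36a1 is a proton-coupled carrier, and Slc36a4 is a carrier of the same family. These carriers are known from lysosomal and Golgi membranes. Slc36a4 was at 23.8, 28.8, 26.0 and 26.1 TPM. Slc36a1, whose promoter holds the pair of extended E-boxes printed above, was at 9.90, 12.1, 10.6 and 9.66 TPM. No E-box letters were found in the promoters of Slc36a4 and Slc38a9. Slc38a9 was at 4.84, 5.79, 5.08 and 4.24 TPM. Each of the 3 was highest in replicate 2. Slc36a1 was below Slc36a4 by 1.30 ± 0.08 log2 units, and Slc38a9 was below Slc36a1 by 1.07 ± 0.07. Both orders held in 4 of 4 libraries. Slc36a3 was at 0.380, 1.24, 1.12 and 0.619 TPM, and Slc36a2 had 5 counts, all in replicate 4.

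Among the Slc6 genes, the taurine carrier Slc6a6 stood far above the rest. It was at 149, 182, 137 and 164 TPM, a mean of 158 ± 19.6 (SD, n = 4), with replicates 2 and 4 the higher. Slc6a8, the creatine carrier, was at 3.48, 4.37, 3.36 and 3.17 TPM, 5.42 ± 0.16 log2 units below Slc6a6 in 4 of 4 libraries. Slc6a9, the glycine carrier GlyT1, was at 7.72, 10.9, 7.22 and 11.7 TPM, and again replicates 2 and 4 were higher. Slc6a12 encodes BGT1, the carrier of betaine and GABA, an osmolyte carrier in kidney. It had 32, 179, 13 and 82 counts, or 0.293, 3.25, 0.193 and 1.78 TPM. The highest library was 16.8 times the lowest, and the mean of 1.38 TPM fell to 0.756 without replicate 2. Its gene neighbour Slc6a13, a GABA carrier, was at 0.443, 0.629, 0.203 and 0.411 TPM, and Slc6a11, also a GABA carrier, had 94, 8, 18 and 1 counts, highest in replicate 1. Slc6a12, Slc6a13 and Slc6a11 fall outside the rule for named members and were singled out after their values were seen.

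Glutamate carriers were nearly silent. The 5 genes Slc1a1, Slc1a2, Slc1a3, Slc1a6 and Slc1a7, which clear glutamate in brain, retina and epithelia, summed to 0.532 ± 0.149 TPM. Slc1a3 made up 60.4% of that sum, and Slc1a6 and Slc1a7 had no counts. The monoamine carriers Slc6a2 and Slc6a4 and the glycine carrier of neurons Slc6a5 had no counts either, while Slc6a3, the dopamine carrier, had 7, 0, 3 and 0. The other members with no counts were Slc38a4, Slc38a11, Slc6a7, Slc6a14, Slc6a15, Slc6a16, Slc6a18, Slc6a20a, Slc6a20b, Slc6a21, Slc7a9, Slc7a12, Slc7a13, Slc7a14 and Slc7a15. For the 20 members at 0, a floor of 3 counts corresponds to 0.00854 to 0.114 TPM, depending on gene length and library, and levels below it were not detectable at this depth. Counting limits of this kind cover counting error only. A further 4 members had under 10 counts in all libraries together.

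**Figure D3:**
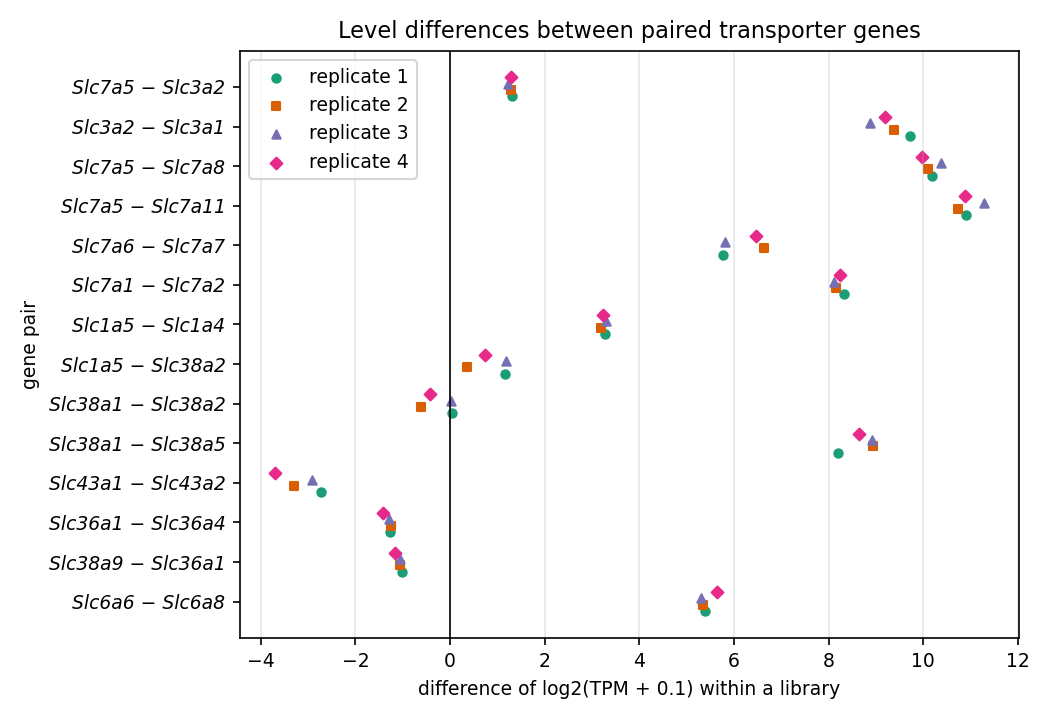
Difference of log2(TPM + 0.1) between the genes of each of 14 pairs, with 1 point per library and a line at 0. In 13 pairs all 4 points lie on the same side of 0, and in Slc38a1 against Slc38a2 the points lie on both sides, from 0.05 to -0.61.

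Members that lie next to each other on a chromosome often differed in level. On chromosome 15, Slc38a1, Slc38a2 and Slc38a4 lie in a row, with gaps of 44.5 kb and 295.1 kb, at means of 149, 180.3 and 0 TPM. On chromosome 2, Slc43a1 and Slc43a3 lie 73.0 kb apart, at 3.50 and 143 TPM. On chromosome 11, Slc36a3, Slc36a2 and Slc36a1 are separated by 6.8 kb and 19.3 kb, at 0.840, 0.0255 and 10.6 TPM. On chromosome 6, Slc6a13 and Slc6a12 lie 5.3 kb apart, at 0.422 and 1.38 TPM.

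Judged by ranges over the libraries, the order of levels was only partly resolved. Ranked by mean, the 24 members at 1 TPM or more give 23 steps, and the ranges over the 4 libraries were apart in 10 of them. Slc7a5 above Slc1a5, Slc1a5 above Slc3a2, Slc43a3 above Slc38a10 and Slc7a6 above Slc1a4 were such steps. Slc3a2, Slc38a2, Slc6a6, Slc38a1 and Slc43a3 overlapped with their neighbours in that order, as did Slc38a10, Slc7a1 and Slc7a6. Compared within each library, Slc38a1 was above Slc43a3, and Slc38a9 above Slc6a8, in 4 of 4 libraries although their ranges overlapped. From Slc1a4 through Slc43a2, Slc36a4 and Slc38a7 down to Slc36a1 every step was apart.

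Spread between the 4 libraries was then tested for each gene against the trend of all genes of like abundance. Of the 63 members, 31 had enough counts in every library to be tested. None passed an adjusted p of 0.05 in edgeR's quasi-likelihood fit across all 13625 genes tested, where the share of genes called was 0.00734%. At an unadjusted p under 0.05 there were 4 members, 12.9% of those tested, beside 4.70% of all tested genes. DESeq2's dispersion outliers included 1 member, Slc6a12, among 0.316% of genes called. When no filter on low counts was applied and 23106 genes entered the fit, 2 members passed, Slc6a12 with an adjusted p of 0.000100 and Slc38a2 with 0.00457, beside 0.424% of all genes. Whether these 2 members are called therefore depends on which genes enter the fit and, for Slc6a12, also on the method, since DESeq2 used the same 13625 genes.

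Slc6a12 and Slc38a2 had the widest spread relative to the trend. For Slc6a12 the dispersion was 22.8 times the trend, with an adjusted p of 0.749 in edgeR. For Slc38a2 it was 15.2 times the trend, with an adjusted p of 0.848 in edgeR. The other members under 0.05 before adjustment were Slc43a1 and Slc6a9, both with an adjusted p of 0.965 in edgeR. The median log2 range between the highest and lowest library was 0.41 over the tested members and 0.30 over all tested genes, and 14 of the 31 members lay under the latter. The median coefficient of variation of the 22 members at 1 TPM was 8.62%, against 7.82% for protein-coding genes at that level. It was under 10% for 12 of them and at least 20% for 4. Those 4 were Slc38a2, Slc6a9, Slc43a1 and Slc7a7.

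**Figure D4:**
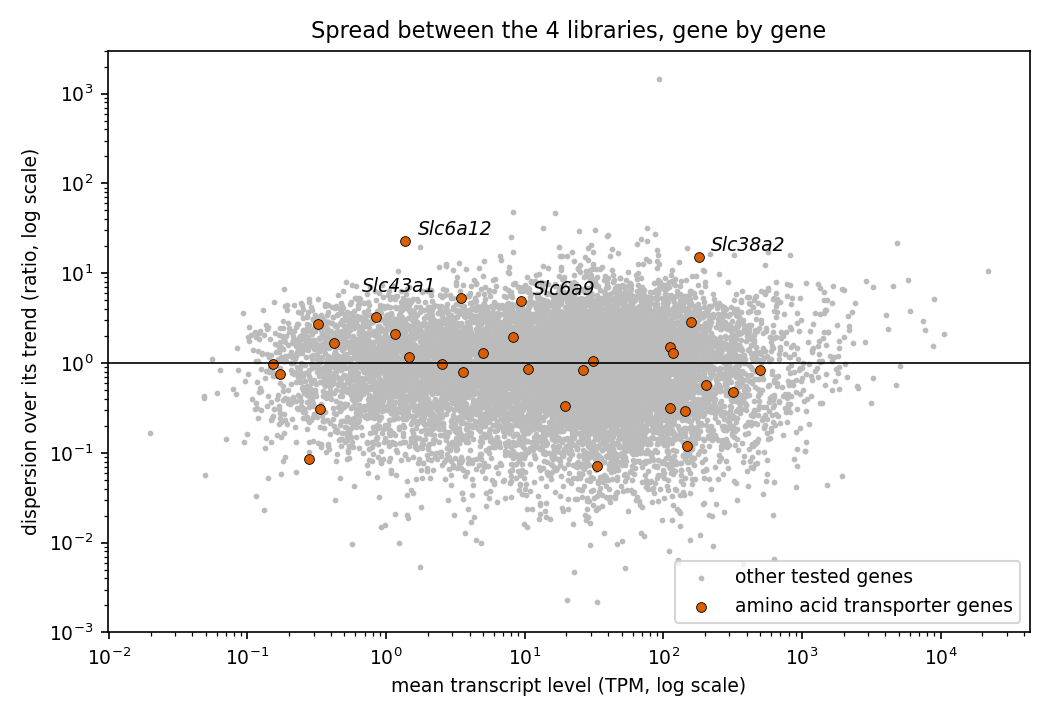
Quasi-likelihood dispersion of each of 13625 tested genes divided by the trend, against mean TPM, both on log axes, with the 31 tested members in colour and a line at a ratio of 1. Slc6a12 at 22.8 and Slc38a2 at 15.2 lie at the upper edge of the cloud, and the other members lie within it.

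Among the tested members, Slc38a2, Slc6a6, Slc6a9, Slc6a12, Slc7a6 and Slc1a3 were each higher in replicates 2 and 4 than in replicates 1 and 3, and Slc43a1, Slc7a7, Slc7a1 and Slc38a7 were each lower there. Slc43a3, Slc1a4 and Slc36a4 were also higher in replicates 2 and 4 in TPM, but not on the TMM-scaled CPM scale. On the TMM-scaled CPM scale, replicates 1 and 2, where Xist was high, exceeded replicates 3 and 4 for Slc7a3, Slc1a2, Slc6a13 and Slc7a11. Slc1a5, Slc1a4 and Slc43a2 were lower in replicates 1 and 2 than in replicates 3 and 4. The share of all tested genes with any of these patterns was not counted, so none is shown to be particular to the transporters. The 3 highest members, Slc7a5, Slc1a5 and Slc3a2, were each lowest in replicate 2 on both scales. In bulk RNA, a change in the number of cells of a type and a change in RNA per cell cannot be told apart. On the TMM-scaled log2(CPM + 0.1) scale, Slc6a12 deviated from its own mean by -1.21, 1.80, -1.60 and 1.01 in replicates 1 to 4, and Slc38a2 by -0.30, 0.41, -0.26 and 0.15. Replicate 2 was the highest library for 16 of the 31 tested members and for 34.3% of all tested genes. Replicates 2 and 4 were also the libraries of least depth, with 62472060 and 51460018 counts. The summed level of the 7 macrophage, monocyte and dendritic cell markers was 2.47, 4.24, 2.36 and 4.63 TPM, with 1 of the 7, Adgre1, above 1 TPM in every library and Lyz2 at 0. The summed level of the 6 B cell markers, almost all of it Ighm, was 357, 373, 326 and 374 TPM. The share of counts on mitochondrially encoded genes was 0.529%, 0.780%, 0.692% and 0.603%. The part of depth and of these markers in the spread of the transporters was not tested.

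**Figure D5:**
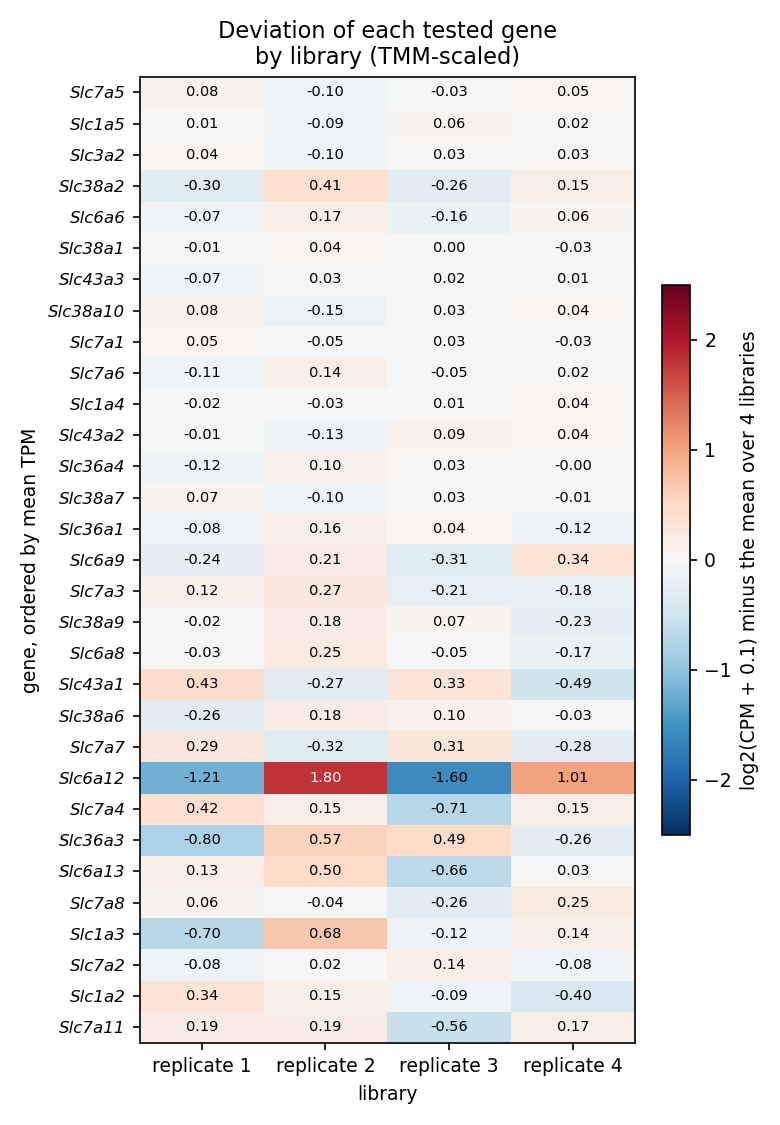
Deviation of each of the 31 tested members from its own mean over 4 libraries, on the TMM-scaled log2(CPM + 0.1) scale, with genes ordered by mean TPM. Most cells are near 0, and Slc6a12 runs from -1.60 in replicate 3 to 1.80 in replicate 2.

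A further 4 genes with roles in osmolyte balance were looked at after the values of Slc6a12 and Slc38a2 had been seen. Nfat5, the transcription factor of the hypertonic response, was at 58.3, 90.1, 60.03 and 68.1 TPM, with an adjusted p of 0.965 in edgeR. Sgk1, a kinase induced by hypertonicity and by many growth signals, was at 56.7, 111, 49.8 and 88.5 TPM, with an adjusted p of 0.671 in edgeR. Both were higher in replicates 2 and 4. Slc5a3, the inositol carrier, was at 23.6, 31.2, 23.8 and 24.2 TPM, high in replicate 2 alone. Akr1b3, the aldose reductase that makes sorbitol, was at 41.7, 42.2, 42.5 and 46.1 TPM and had no such pattern. As the 4 genes were picked with the pattern of Slc6a12 and Slc38a2 known, their levels are a description only. The share of all tested genes higher in replicates 2 and 4 was not counted, and a hypertonic response was not tested.

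Genes that sense or use the transported amino acids were measured beside the carriers. Of 34 genes listed for lysosomal amino acid sensing by mTORC1, 31 were found by symbol. All 31, with a median of 29.9 TPM, passed 1 TPM in every library, as did 48.9% of protein-coding genes. The highest of the 31 were Rraga, a Rag GTPase, at 205 TPM and Lamtor5, of the Ragulator scaffold, at 138 TPM. The lowest was Rragb at 3.37 TPM. Of 15 genes listed for the response through Gcn2 and Atf4, 14 were found by symbol, and all 14 passed 1 TPM. Their median was 49.8 TPM. Ddit4, an mTORC1 inhibitor, stood at 654 TPM and Atf4 itself at 637 TPM, and Impact, an inhibitor of Gcn2, was the lowest at 13.9 TPM. Of 22 enzymes that use transported amino acids, 17 passed 1 TPM, from Odc1 of polyamine synthesis at 1439 TPM and Mat2a of S-adenosylmethionine synthesis at 275 TPM down to Ido1 at 0.01005 TPM. Of 17 amino acid and peptide carriers listed outside the 7 families, 16 were found by symbol and 13 passed 1 TPM. The highest were Slc15a3, a lysosomal peptide and histidine carrier, at 98.3 TPM and Slc25a12, the mitochondrial aspartate and glutamate carrier, at 48.3 TPM, and the lowest was Slc17a6 at 0.0116 TPM. None of these lists held a gene that passed the spread test. At an unadjusted p under 0.05 in edgeR there were 4 of the 31 tested genes of the sensing list, 1 of 14 of the Gcn2 list, 3 of 19 of the enzyme list and 1 of 14 of the carrier list, beside 4.70% of all tested genes.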

How the data were processed

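Per the file headers, the authors counted fragments per gene with featureCounts 1.4.6-p4, using GENCODE M13 on the mm10 assembly, pairs with both ends mapped and reverse-stranded counting. The deposited values are raw counts, with each gene's exon length beside them. The labels name total RNA-seq as the assay, and the linked library protocol is one for poly(A)+ RNA. The aligner is not given in the sources used here. TPM was computed here. Gene types came from GENCODE M21.

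Members were taken by the name rule, and pairs by known partnership or shared substrate. The rule, the pairs and the lists were set with earlier results of these data known. Named members were those of the 14 pairs, others with a mean of at least 5 TPM, any called for spread, and the 5 highest below 5 TPM. For the lists, the 2 highest and the lowest gene were named. Other named genes were chosen after their values were seen, and some genes are not reported here.

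Pairs were compared by an exact two-sided sign-flip permutation test on log2(TPM + 0.1) differences. The test of spread ran in edgeR 4.0.16 (R 4.3.3) with TMM, filterByExpr, which drops genes with few counts in any library, and an intercept-only quasi-likelihood fit with a robust prior of 6.54 degrees of freedom. Its statistic was the dispersion over the trend, with Benjamini-Hochberg adjustment over 13625 genes. It was tested on simulated data in which every gene held the dispersion of the trend, so its power on the real data was not measured. Alternatives used DESeq2 1.42.0, limma 3.58.1, other filters, scalings and thresholds, and each replicate left out. Promoters came from RefSeq. Protein sequences were not used here. Other software was Python 3.11.15 with scipy 1.17.1, pandas 2.3.3, numpy 2.4.6 and, for plots, matplotlib 3.10.9.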

Additional observations from a re-analysis of the deposited data

Results flagged for a closer look

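Among 28 members, those named by the rule and Slc6a12, which was added after its values were seen, 2 had a library whose gap to the nearest other library was a larger part of the whole range than Dixon's 95% critical value for 4 samples. Chance gives such a gap in about 1 of 20 groups. Slc38a1 was at 157.2 TPM in replicate 2, with a gap of 0.875 of its range, although the range itself was small. Slc7a11 was at 0.0913 TPM in replicate 3, with a gap of 0.915 of its range, from 28 counts against 36 to 86 in the other libraries.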

How the results depend on the processing

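The summed level of the members was 2151 TPM, 3371 CPM without division by length, and 2586 when TPM was scaled over nuclear protein-coding genes without those for ribosomal proteins. That other total multiplied the levels of the 28 members followed by 1.19 to 1.22. Without replicate 2 the mean of Slc6a12 went from 1.38 to 0.756 TPM. Of 84 alternatives for the pairs, 83 kept the direction. The exception was Slc38a1 against Slc38a2, which reversed to 0.62 without division by length. With 3 libraries the smallest exact permutation p is 0.25. The number of members called for spread was 0 in edgeR, 2 without a filter on low counts and 1 by DESeq2, and 0 under every other alternative run, including each replicate left out. No paired analysis was possible because all libraries belong to 1 group. Low counts limit members below 1 TPM, and the number of libraries limits the exact p-values of the pairs.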
